A study of Macaca mulatta with 24 samples.

Results

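The B-cell receptor complex and its surface and signaling partners were represented by 9 genes: CD79A, CD79B, MS4A1, CD22, CD72, CR2, BLNK, BTK and VPREB3. They were found by gene symbol among the non-control probes of the array, which gave 18 probes, and were 9 of 15046 genes with a symbol. The array's own gene-name field named 8 of the 9, and BTK was reached through its accession and 4 probe descriptions, so that counts are also given for the 8. Each gene was represented by its brightest probe over all arrays, and 17 of the 18 probes were bright enough to be tested.

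RNA came from whole blood of adult rhesus macaques (Macaca mulatta) of Chinese origin, collected in PAXgene tubes, depleted of globin transcripts and hybridized to 24 one-color Agilent rhesus arrays. The groups were 7 arrays before irradiation (0 Gy, 4 male and 3 female animals), 4 at day 3 (3 male, 1 female), 6 at day 5 (4 male, 2 female) and 7 at day 7 (4 male, 3 female) after 4 Gy total body irradiation. The sample labels give day 0 for the blood drawn before irradiation and X-rays as the source, while the study's methods give an earlier day and 60Co gamma rays. The same animals were bled repeatedly, the replicate number was taken to mark the animal, and none of the arrays came from animals left unirradiated in parallel. All day 3 and day 5 arrays were scanned in session 2 together with pre-irradiation replicate 5 and day 7 replicate 5, and the other 6 pre-irradiation and 6 day 7 arrays in session 1. The share of probes well above background was 48.3 to 61.2% over the arrays, and precision is limited by how many arrays each group had.

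A B cell recognizes antigen through membrane immunoglobulin, which cannot signal by itself and depends on the paired chains CD79A and CD79B for surface transport and for the cytoplasmic motifs that recruit kinases. Co-receptors at the surface raise or dampen that signal, and the adaptor BLNK and the kinase BTK carry it to phospholipase C-gamma and calcium. Lymphocytes, and B cells above all, are among the most radiosensitive cells of blood.

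The probes are 60-base oligonucleotides, and the sequences on which the results below turn are given 5′ to 3′ as the array design lists them. For the receptor chain CD79A and the pre-B protein VPREB3 the brightest probe is shown, on which their values rest. The BTK sequence is that of P1741416, a dimmer probe shown because it shared the course of the brightest BTK probe, on which the BTK counts and changes rest. The CR2 probe shown is the second, dimmer one, which followed the brighter CR2 probe, and the capitals mark its last 3 bases, a stop triplet in the reading frame that has no other stop.
CD79A: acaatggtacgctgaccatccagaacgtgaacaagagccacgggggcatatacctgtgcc
CR2: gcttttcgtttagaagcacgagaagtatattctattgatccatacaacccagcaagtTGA
BTK: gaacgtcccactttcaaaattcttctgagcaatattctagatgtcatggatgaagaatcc
VPREB3: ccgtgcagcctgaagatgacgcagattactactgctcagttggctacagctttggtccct
The CD79B probe P1754866 shared runs of 20 bases with 13 other probes of the array and the BTK probe P1832501 with 35, whereas the other 16 probes of the 9 genes shared none with any other of the 43603 probes. Positions follow the design's own mapping to rheMac2 and were not checked against a genome. The brightest CD79B probe was placed on the minus strand at chr16:59484184-59484243, that of MS4A1 at chr14:13596622-13596681, that of CR2 at chr1:162868253-162868312, that of BLNK at chr9:95728197-95728256 and that of BTK at chrX:100066180-100066239, while those of CD22 (chr19:41851578-41851637) and CD72 (chr15:41913277-41913338) were on the plus strand, and those of CD79A and VPREB3 had no position.

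The 9 genes were lower after irradiation on nearly every array. At day 3, 8 of 9 fell (8 of the 8 named by the array), at day 5 9 of 9 fell (8 of 8) and at day 7 8 of 9 fell (7 of 8), with none higher (limma, Benjamini-Hochberg adjusted over all probes tested, threshold 0.005). Among all named genes tested, the share that fell was 7.58% of 10881 at day 3, 9.12% of 10884 at day 5 and 7.18% of 10884 at day 7. The exceptions were BTK at day 3 and CR2 at day 7. CD72 and VPREB3 met the filter on dim probes only through their pre-irradiation arrays, so that their calls carry no weight. Of the other 7 genes, 6, 7 and 6 fell at days 3, 5 and 7, with a median log2 change of −3.26, −3.31 and −2.92. The median log2 change of the 9 genes was −3.53, −3.92 and −3.67 at days 3, 5 and 7, against −0.003, −0.005 and −0.012 over all genes. Every array of the day lay below every pre-irradiation array for 9, 9 and 8 of the 9 genes on the successive days (7, 7 and 6 of the 7), against 12.1%, 8.31% and 6% of all genes. In whole blood, fewer B cells and less RNA per B cell cannot be told apart.

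**Figure D1:**
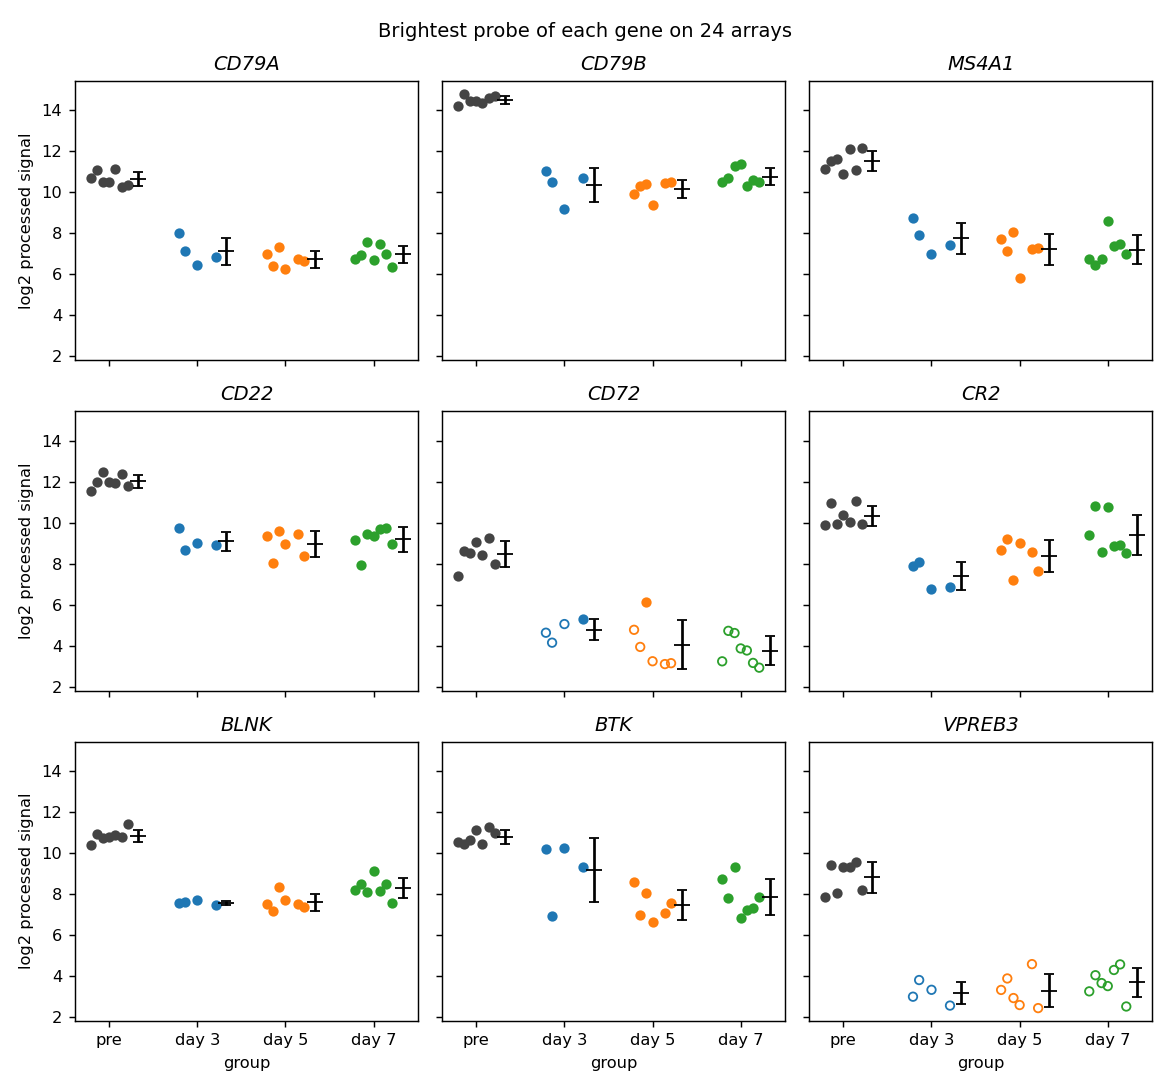
Log2 processed signal (y axis) of the brightest probe of each of the 9 genes on 24 arrays by group (x axis), with the mean and SD of each group as a cross and bars, and open points for arrays on which the probe was not well above background. The points after irradiation sit below those before irradiation except for CR2 at day 7, where 2 arrays reach the pre-irradiation range.

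The signaling chains CD79A and CD79B were low from the first sampled day on. CD79A, the Ig-alpha chain, had a log2 signal of 10.29 at the lowest, 10.49 at the median and 11.15 at the highest before irradiation. At day 3 the 4 arrays, replicates 1, 2, 4 and 7, gave 8.00, 7.16, 6.46 and 6.87. At day 5 the lowest, median and highest were 6.24, 6.70 and 7.32, and at day 7 they were 6.38, 6.95 and 7.58. No array after irradiation reached the pre-irradiation range, and the 3 days overlapped one another. Its log2 change was −3.53 ± 0.28 (SE) at day 3 (adjusted p = 1.46e-05 by limma), −3.92 ± 0.20 at day 5 (adjusted p = 2.41e-08) and −3.67 ± 0.21 at day 7 (adjusted p = 8.82e-08), or 11.6-, 15.2- and 12.8-fold lower. With normexp background correction in place of the processed signal the changes were smaller, −2.49, −2.36 and −2.50, and still called.

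CD79B, the Ig-beta chain, ran from 14.20 to 14.81 before irradiation, with a median of 14.45. The 4 day 3 arrays gave 11.05, 10.49, 9.19 and 10.71, and the lowest, median and highest were 9.38, 10.36 and 10.50 at day 5 and 10.30, 10.60 and 11.39 at day 7. The groups before and after irradiation were thus far apart, and day 3 replicate 4 was the lowest array of all 24. CD79B changed by −4.15 ± 0.30, −4.35 ± 0.19 and −3.75 ± 0.19 on the 3 days (limma adjusted p at most 8.33e-06), or 17.7-, 20.3- and 13.5-fold lower. A second CD79B probe fell on each day (−3.69, −3.67 and −3.29). The third, P1754866, which shares runs with other probes and which the design maps to another chromosome, changed by 0.44, −0.01 and −0.90, and its groups overlapped on each day.

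Among the surface proteins, MS4A1 and CD22 passed the threshold on each day, and CR2 passed it at days 3 and 5 and missed it at day 7, while CD72 was close to background after irradiation. MS4A1 (CD20), a membrane protein of mature B cells and the target of rituximab, ran from 10.92 to 12.17 before irradiation with a median of 11.55. At day 3 it gave 8.75, 7.91, 6.98 and 7.41, and at day 5 it lay between 5.85 and 8.07 (median 7.27) and at day 7 between 6.44 and 8.59 (median 6.98). The highest array after irradiation, day 3 replicate 1, thus lay well below the lowest pre-irradiation array. The change was −3.76 ± 0.35, −4.31 ± 0.33 and −4.32 ± 0.31 at days 3, 5 and 7 (limma adjusted p at most 3.88e-05), and −2.92, −2.95 and −3.19 with normexp, still called. A second MS4A1 probe was well above background on 1 of 24 arrays and was not tested.

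CD22, a sialic acid-binding lectin that inhibits the receptor, ran from 11.56 to 12.48 before irradiation with a median of 11.96. The day 3 arrays gave 9.73, 8.66, 9.01 and 8.92, the day 5 arrays ran from 8.04 to 9.61 (median 9.14) and the day 7 arrays from 7.94 to 9.74 (median 9.37). The days overlapped one another and none reached the pre-irradiation range. CD22 fell on each day (−2.92 ± 0.23, −3.04 ± 0.26 and −2.82 ± 0.25 on the log2 scale), or 7.59-, 8.25- and 7.06-fold (limma adjusted p at most 1.51e-05). Its second probe, at another position of the gene, also fell on each day (−1.90, −2.40 and −2.42).

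CD72, a C-type lectin that also inhibits the receptor, ran from 7.41 to 9.23 before irradiation, where all 7 arrays were well above background. At day 3 it gave 4.63, 4.15, 5.05 and 5.31, and it lay between 3.10 and 6.12 at day 5 and between 2.93 and 4.72 at day 7. The probe was well above background on 1 of 4, 1 of 6 and 0 of 7 of these arrays, so that the day 7 value is a bound, at least 13.2-fold lower. Its limma adjusted p of 6.64e-07 carries no weight, since the probe met the filter only through its pre-irradiation arrays. At days 3 and 5 the log2 differences were −3.68 ± 0.34 and −4.41 ± 0.47, most of whose arrays after irradiation were not well above background. With normexp background correction the differences were −1.23, −0.87 and −1.61 on the 3 days and none was called (adjusted p 0.0742, 0.244 and 0.037), so that the size of the fall depends on how background was handled.

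CR2 (CD21), the complement receptor of the B-cell co-receptor complex, fell early and lay higher on every day 7 array than on every day 3 array, a difference that did not pass the threshold. Before irradiation it ran from 9.88 to 11.03, with a median of 10.05. The 4 day 3 arrays gave 7.90, 8.10, 6.78 and 6.88, the day 5 arrays ran from 7.20 to 9.18 (median 8.63), and the 7 day 7 arrays, replicates 1 to 7, gave 9.39, 10.81, 8.58, 10.76, 8.88, 8.91 and 8.53. Day 7 replicates 2 and 4 lay within the pre-irradiation range, the other 5 lay below it, and all 7 lay above all 4 day 3 arrays, as 1 of the 9 genes did and as 6.11% of all genes did. The change from pre-irradiation was −2.89 ± 0.33 at day 3 (limma adjusted p = 0.000155) and −1.92 ± 0.33 at day 5 (0.000645), and with normexp −2.04 (0.00369) and −1.40 (0.00959), of which the second was not called. At day 7 it was −0.90 ± 0.38, with a 95% interval of −1.72 to −0.08, which did not pass the threshold (limma adjusted p = 0.0936). In 6 of 7 animals CR2 was lower at day 7 than before irradiation in the same animal, by a median log2 change of −1.17 and a range of −2.12 to 0.40.

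The second CR2 probe moved with the first. It ran from 6.03 to 7.41 before irradiation and from 2.93 to 5.60 at day 5, and gave 4.57, 3.34, 3.31 and 3.19 at day 3 and 5.39, 6.16, 4.74, 7.26, 5.33, 5.61 and 4.88 at day 7. The same animals, replicates 2 and 4, again reached the pre-irradiation range at day 7, and no day 3 array was well above background, a fall of at least 3.64-fold. From day 3 to day 7 the brightest probe differed by 1.99 ± 0.50 (95% interval 0.90 to 3.08, limma adjusted p = 0.0216), which did not pass 0.005. For the second, well above background on 0 of 4 day 3 and 3 of 7 day 7 arrays, only a bound of at least 1.8-fold higher can be given (limma adjusted p = 0.0136). Fitted with all 4 groups together, the brightest probe passed (adjusted p = 0.00346), and over the alternatives the adjusted p ran from 0.00346 to 0.72. All day 3 arrays were scanned in session 2 and 6 of 7 day 7 arrays in session 1. With session as a block the difference was 1.46 (adjusted p = 0.658), with slide as a block 2.04 (0.72) and with the replicate as a block 2.46 (0.0169), none past the threshold. Without replicate 4 the difference was 1.56 (adjusted p = 0.0942), and over all the alternatives the difference was 1.43 to 2.46. The day 7 arrays of replicates 2 and 4 also stood at −2.64 and −1.36 in the mean of 12 erythroid genes relative to pre-irradiation, against −5.49 to −2.29 on the other 5 day 7 arrays. Of these, replicate 5 at −2.29 lay above replicate 2 in erythroid level while its CR2 lay below the pre-irradiation range, and the part of this in the CR2 values was not tested.

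**Figure D2:**
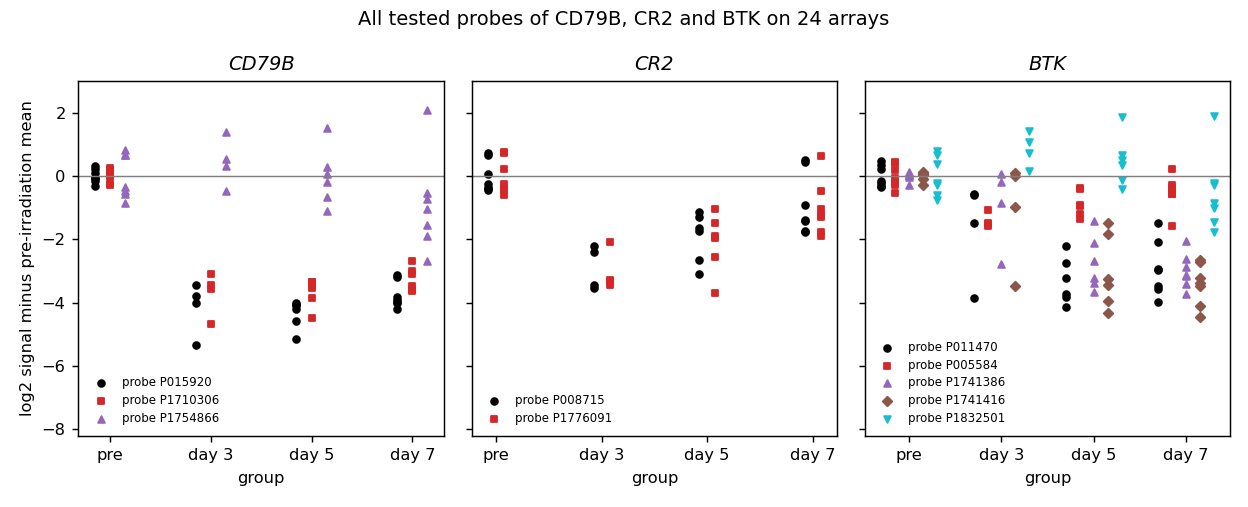
Log2 signal minus the probe's pre-irradiation mean (y axis) for each tested probe of CD79B, CR2 and BTK on every array by group (x axis), 1 symbol per probe. Both CR2 probes are higher on every day 7 array than on every day 3 array, 3 BTK probes share 1 low array at day 3, and the probes P1754866 and P1832501, which share runs with other probes, scatter around 0.

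Of the signaling proteins, BLNK, the adaptor that brings BTK and phospholipase C-gamma together, fell on each day, while BTK missed the threshold at day 3. BLNK ran from 10.39 to 11.39 before irradiation, with a median of 10.78. It gave 7.54, 7.60, 7.69 and 7.44 at day 3, the tightest group of any gene here (SD 0.11), and ran from 7.14 to 8.32 at day 5 and from 7.56 to 9.14 at day 7. The groups before and after irradiation did not overlap. BLNK changed by −3.26 ± 0.18, −3.24 ± 0.20 and −2.53 ± 0.22 on the 3 days (limma adjusted p at most 4.31e-06), and by −2.24, −2.01 and −1.84 with normexp, still called. From day 3 to day 7 BLNK differed by 0.73 ± 0.26 and from day 5 to day 7 by 0.71 ± 0.25, with adjusted p of 0.0708 and 0.123 by limma.

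BTK, a Tec-family kinase that B cells share with monocytes and platelets, ran from 10.43 to 11.27 before irradiation, with a median of 10.62. At day 3 replicates 1, 2, 4 and 7 gave 10.18, 6.92, 10.22 and 9.29, so that replicates 1 and 4 lay just below the lowest pre-irradiation array, and replicate 2 far below it. At day 5 BTK ran from 6.65 to 8.56 and at day 7 from 6.82 to 9.29, both wholly below the pre-irradiation range. The day 3 change was −1.63 ± 0.52 (95% interval −2.77 to −0.48, limma adjusted p = 0.0308) and did not pass the threshold, and without replicate 2 it was −0.94 (adjusted p = 0.0323). The changes at days 5 and 7 were −3.31 ± 0.29 (2.55e-06) and −2.92 ± 0.33 (3.02e-05), or 9.91- and 7.58-fold lower. With normexp the 3 changes were −1.01, −2.20 and −1.94, called on the same days as without it. The difference between day 5 and day 3 was −1.68 ± 0.63, with an adjusted p of 0.395 by limma.

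Of the other 4 BTK probes, P1741386 and P1741416 shared this course. At day 3, P1741386 gave 9.43, 6.58, 9.18 and 8.49 and P1741416 gave 9.40, 5.84, 9.31 and 8.33, against means before irradiation of 9.36 and 9.32, so that replicate 2 was the low array in each. Both fell at day 5 (−2.74 and −3.04) and at day 7 (−3.0 and −3.43). The fourth probe, P005584, instead fell at day 3 (−1.41, limma adjusted p = 0.000759), where its 4 arrays lay between 6.69 and 7.19, and changed by −0.86 at day 5 and −0.50 at day 7, short of the threshold. The fifth, P1832501, which shares runs with other probes, changed by 0.84, 0.48 and −0.52 and was not called.

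Platelet and erythroid transcripts moved on the same day 3 arrays. Of 10 platelet genes tested, 10 rose at day 3, with a mean level 3.06, 2.92, 2.82 and 2.13 above pre-irradiation on replicates 1, 2, 4 and 7, against −0.91 to 0.38 before irradiation. The mean of 12 erythroid genes was −2.80, −1.32, −2.74 and −2.79 on these arrays. Replicate 2 was thus not set apart in platelet transcripts and was the highest of the 4 in erythroid transcripts, and their part in the BTK values was not tested.

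VPREB3, a protein of the endoplasmic reticulum that binds immunoglobulin chains in precursor and some mature B cells, was not well above background on any array after irradiation. Before irradiation it ran from 7.83 to 9.57 with a median of 9.31, and it was well above background on 7 of 7 arrays. It gave 2.99, 3.80, 3.32 and 2.55 at day 3, then ran from 2.43 to 4.57 at day 5 and from 2.51 to 4.56 at day 7, and was well above background on 0 of 4, 0 of 6 and 0 of 7 arrays. The fall is therefore a bound, at least 16.4-fold at day 3, 16.8-fold at day 5 and 15.8-fold at day 7, and the days cannot be ordered. The limma adjusted p of at most 7.90e-06 carries no weight, since the probe met the filter only through its pre-irradiation arrays. With normexp background correction the log2 differences were −1.65, −1.15 and −1.86 and none was called (adjusted p 0.0484, 0.164 and 0.0208).

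**Figure D3:**
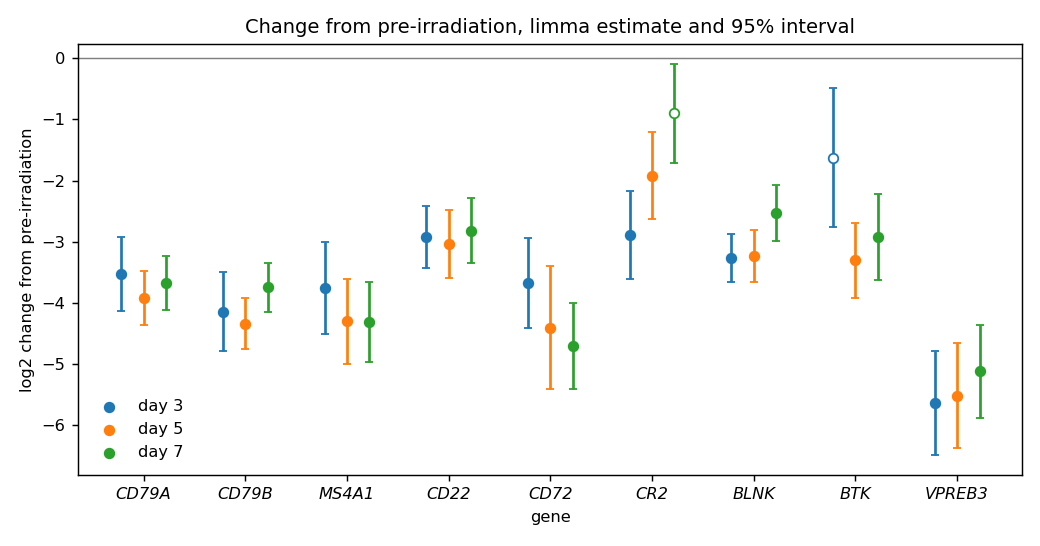
Log2 change from pre-irradiation (y axis) of each of the 9 genes (x axis) at days 3, 5 and 7, as the limma estimate with its 95% interval, filled where the adjusted p was under 0.005 and open where it was not. The open points are BTK at day 3 and CR2 at day 7, and the VPREB3 values and CD72 at day 7 come from arrays not well above background.

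None of the 9 genes passed limma's threshold between day 5 and day 3, day 7 and day 3 or day 7 and day 5, where 2, 3 and 3 had an unadjusted p under 0.05. Among all named genes tested, 0.0368%, 1.6% and 0.00919% were called in these comparisons. The median log2 difference of the 9 genes was −0.20, 0.11 and 0.39. The differences furthest from 0 were those of CR2 between days 3 and 7 (1.99) and of BTK between days 3 and 5 (−1.68), given above. CD79B was 0.60 ± 0.24 higher at day 7 than at day 5 (limma adjusted p = 0.178). CD72 was well above background on 0 of 7 day 7 and 1 of 4 day 3 arrays. For it only a bound of at least 1.03-fold lower at day 7 than at day 3 can be given (limma adjusted p = 0.0810). A missed threshold with 4 to 7 arrays a group does not show that the days were alike, and the 95% intervals for CD79A reached from −1.07 to 0.29 between days 3 and 5 and from −0.24 to 0.74 between days 5 and 7.

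Each animal was also set against its own blood before irradiation. CD79A, CD79B, MS4A1, CD22, BLNK and BTK were lower in 4 of 4 animals at day 3, 6 of 6 at day 5 and 7 of 7 at day 7, and CR2 in 4 of 4, 6 of 6 and 6 of 7. CD72 and VPREB3 were lower in every animal too, but carry no weight, since they met the filter only through pre-irradiation arrays. The share of all genes lower in every animal was not counted, so that these counts are a description only. The mean of the 7 genes other than CD72 and VPREB3, relative to its pre-irradiation mean, ran from −0.31 to 0.16 before irradiation and, on the 3 days, from −3.47 to −2.49, from −3.83 to −3.09 and from −3.40 to −2.55. Day 3 replicate 1 was the least reduced of the 4 day 3 arrays, and it was the highest of them in CD79A, CD79B, MS4A1 and CD22. Females and males differed in the day 7 change by −1.17 to 0.47 on the log2 scale over the 9 genes. In the fit without the animal, 0 of 9 differed by limma's interaction term (adjusted p 0.617 to 0.988, lowest unadjusted p 0.102). With the replicate as a block 0 of 9 differed as well, while CR2 had an unadjusted p of 0.0336 (−1.17 ± 0.46, adjusted p = 0.43 by limma). In both fits 0 of all tested probes were called, so that these counts say nothing particular about the 9 genes. For CR2 the change was −1.57 in 3 females and −0.40 in 4 males.

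Within scan session 2, which held 1 pre-irradiation array, the log2 changes of the 9 genes were −6.16 to −1.30 at day 3 and −6.04 to −1.66 at day 5, so that each was below 0. With that array as the lone pre-irradiation sample, tests within session 2 take it to vary like the others and give no support. With session as a block, limma called 3 of 9 at day 3 and 5 of 9 at day 5, against 0.136% and 1.41% of all tested probes. With slide as a block it called 0 of 9 (8 with an unadjusted p under 0.05) and 6 of 9, against 0% and 1.63%. The session block rests on pre-irradiation replicate 5 alone, as does the slide block at day 3, where only slide 6 held both groups. At day 5 no slide held both groups, so that the slide block cannot compare them within slides. At day 7, where each of the 3 slides of session 1 held both groups, 8 of 9 were called with slide or session as a block and 8 of 9 within session 1 alone. Session and day are thus nearly confounded at days 3 and 5 but not at day 7.

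The wider receptor pathway did not move as a unit. Of 30 further genes of B-cell receptor signaling, 26 were tested, of which 3 fell and 4 rose at day 3, 4 fell and 5 rose at day 5, and 3 fell and 0 rose at day 7. The share of all named genes that rose was 5.96%, 6.24% and 2.67%. The median log2 change of the 26 was 0.42, 0.09 and −0.23. BLK and BANK1 fell on each day. BLK is a Src-family kinase (log2 changes −2.69, −2.84 and −2.78) and BANK1 a scaffold (−2.46, −2.64 and −2.26). VAV2, a guanine nucleotide exchange factor, fell at day 5 (−1.10, limma adjusted p = 0.00193), where it was well above background on 3 of 6 arrays. The 4 that rose at day 3 were the kinase LYN (1.30), the adaptor DOK3 (1.34), the exchange factor VAV1 (0.73) and the phosphatase INPP5D (0.80). At day 5 the 5 were LYN (0.94), VAV1 (0.85), INPP5D (1.21) and the adaptors PIK3AP1 (0.78) and DAPP1 (0.81). SYK, the kinase that docks on the CD79 chains, changed by 0.68, 0.32 and −0.39, and PLCG2, the phospholipase downstream of BTK, by 0.48, 0.21 and −0.24, none of them past the threshold.

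Of 20 other B-cell surface genes, 17 were tested, of which 8 fell at day 3, 7 at day 5 and 8 at day 7, while 1, 1 and 0 rose. Their median change was −2.10, −1.61 and −1.49. One of those counted, FCRL2, met the filter on dim probes only through 4 pre-irradiation arrays, and without it 7, 6 and 7 of 16 fell. The Fc receptor-like gene FCRL1 fell on each day (−5.14, −4.69 and −4.14 on the log2 scale), although it was well above background on only 2 of 4, 2 of 6 and 4 of 7 arrays, so that the size is uncertain. So did FCRLA (−4.13, −4.25 and −4.65) and CD40, the receptor for T-cell help (−2.15, −2.71 and −3.14). CD180, a Toll-like receptor homolog that monocytes also carry, rose by 1.47 at day 3 and 1.13 at day 5 and changed by 0.59 at day 7, past the threshold only on the first 2 of these days.

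Of 13 pre-B receptor and immunoglobulin genes, 3 were tested, of which 2, 2 and 0 fell on the 3 days. JCHAIN, the joining chain of secreted antibody, fell at days 3 and 5 (−2.22 and −1.84), as did MZB1, a chaperone for immunoglobulin (−2.0 and −1.55). At day 7 they changed by −1.17 and −0.82, with adjusted p of 0.0936 and 0.154 by limma. DNTT changed by −2.15, −2.15 and −1.90 without passing the threshold. Of 7 plasma cell genes tested, 1, 1 and 0 fell and 0, 1 and 0 rose by limma, with medians of −0.42, 0.01 and 0.02. TNFRSF17 (BCMA) fell at days 3 and 5 (−2.87 and −2.50), where it was well above background on 1 of 4 and 4 of 6 arrays, and changed by −1.17 at day 7, and PRDM1 rose by 0.89 at day 5.

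**Figure D4:**
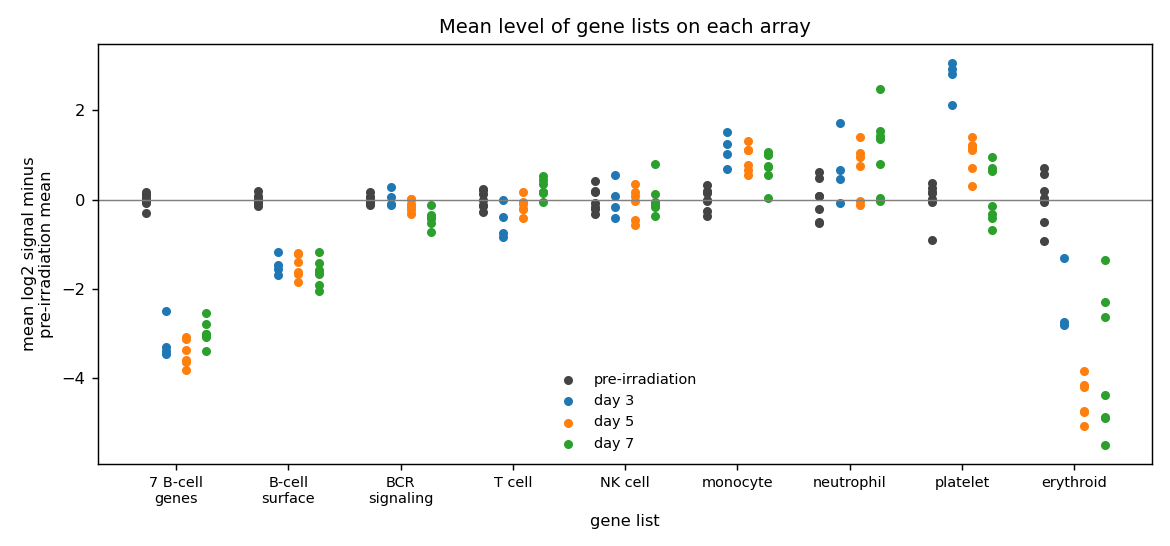
Mean log2 signal of each gene list relative to its pre-irradiation mean (y axis) on each of 24 arrays, 1 point per array, by list (x axis) and colored by group. The 7 B-cell genes, without CD72 and VPREB3, lie between −3.83 and −2.49 on every array after irradiation, while the T-cell and NK-cell lists stay between −0.83 and 0.79. List levels are relative to the other transcripts of each array and are not cell counts.

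Of 11 T-cell genes tested, limma called 0 at days 3, 5 and 7 (4, 2 and 3 with an unadjusted p under 0.05), with medians of −0.49, −0.18 and 0.24 and a summed signal that ran from 69980 to 110300 before irradiation and, on the 3 days, from 44070 to 101700, from 55320 to 91490 and from 75190 to 134500. Of 11 NK-cell genes, limma called 0, 1 and 0 (3, 2 and 2 with an unadjusted p under 0.05), with medians of 0.21, 0.17 and 0.06 and 4, 5 and 5 genes below 0. The gene called was XCL1, which fell at day 5 (−1.43). Levels here are relative to the other transcripts of each array, so that flat T-cell and NK-cell values do not show unchanged cell numbers. The paper reports a steep early fall of lymphocyte counts after irradiation. Of 10 monocyte genes 3, 3 and 2 rose, with medians of 1.01, 1.0 and 0.90, and on each day 1 of the 10 was below 0. FCN1 rose by 1.84 and FGL2 by 1.38 at day 3, while LYZ changed by −0.55, −0.61 and −0.54 without being called. Of 12 neutrophil genes 1, 2 and 2 rose, with medians of 0.64, 0.58 and 0.50, and 1, 1 and 4 of the 12 were below 0. LCN2 rose by 3.05 and S100A12 by 2.65 at day 7 and CSF3R by 1.82 at day 5, while LTF changed by −1.33, −1.48 and −1.09 without being called.

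Of 10 platelet genes 10, 2 and 0 rose at days 3, 5 and 7, with a summed signal of 45720 to 124200 before irradiation and 381500 to 646300 at day 3. SELP rose by 3.16 and ITGA2B by 3.14 on the log2 scale at day 3, and GP1BA was at least 3.25-fold higher. Of 12 erythroid genes 8, 9 and 9 fell, with summed signals of 536000 to 1208000 before irradiation and 7746 to 21850 at day 5, where EPB42, KLF1 and ALAS2 fell (−8.16, −8.07 and −8.06 on the log2 scale), the first 2 of them well above background on 4 and 3 of 6 arrays. At day 3 RHAG, ANK1 and GATA1 of this list were above 0 (2.17, 1.08 and 0.66) and not called. Without SLC4A1 and CA1, which met the filter only through pre-irradiation arrays, 6, 7 and 7 of 10 erythroid genes fell. Of 4 dendritic cell genes tested, CLEC9A was at least 2.07-fold lower at day 3, and FCER1A fell at day 5 (−1.97) and at day 7 (−2.50). The part of these lineages in the 9 B-cell genes' signals was not tested.

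The genes whose course over the 24 arrays lay closest to the mean of the 9 were sought among 10875 others, by the root mean square of the log2 difference after each was set to its pre-irradiation mean. Among the 8 closest were SPIB (0.393), BCL11A (0.406), PNOC (0.657), FBXO7 (0.672), IFRD2 (0.673), BNIP3L (0.677) and XKRX (0.678). Against the mean of the 7 genes without CD72 and VPREB3, SPIB (0.322), BCL11A (0.426), PNOC (0.46) and FBXO7 (0.554) were again among the 8 closest, and IFRD2, BNIP3L and XKRX were not. SPIB changed by −3.22, −3.50 and −3.24 at days 3, 5 and 7 and BCL11A by −3.0, −3.41 and −3.51.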

How the data were processed

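The authors isolated whole-blood RNA, hybridized it to one-color arrays and deposited the scanner output, whose processed signal is a linear, background-corrected intensity (Feature Extraction 10.7 in the submitters' notes, 12.0.2.2 in the header). Their deposited series matrix gives the log2 of this intensity, moved by a constant for each array, and served as an alternative, without VPREB3. The labels and the file design name a rhesus array, and the methods a human one.

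Here log2 of the processed signal was used without spots marked as outliers, and spots of a probe were averaged. Arrays were brought to the array of median brightness by the median of the differences (shifts −0.87 to 2.03). Probes had to be well above background on 4 or more of the 24 arrays, which left 27133 of 43603. Each pair of groups was compared by limma 3.58.1 in R 4.3.3 with no covariates, two-sided, and a probe was called where the adjusted p (Benjamini-Hochberg, all tested probes) was under 0.005, or 0.05 for the interaction with sex. A fold is a bound where a whole group was not well above background. The dim group then entered with its own signal or, if higher, with the dimmest probe that was above background on that array.

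Genes took their symbol from the array (23054 probes), from accessions matched to RefSeq (898) or, for BTK, from the description (4). Named genes are the 9, the 3 called genes of each other list with the largest log2 change, and the 8 nearest genes. Some genes and sequences that this rule names are not reported here. SYK, PLCG2, DNTT, VAV1, VAV2, PIK3AP1 and DAPP1 were added after their values were seen, as were LTF, LYZ, RHAG, ANK1, GATA1 and FCRL2 and the counts and means without genes that met the filter only before irradiation. The 9 genes and the lists were chosen with earlier results of these data known. Replicate numbers were taken to pair the arrays. Same-numbered arrays deviated together in every pair with pre-irradiation (r 0.132 to 0.454), while the medians over different numbers were −0.079 to −0.05. Each such pair at day 7 also shared a slide, so that animal and slide cannot be told apart there. The pairs at days 3 and 5 shared none (r 0.134 to 0.414 and 0.171 to 0.454). No 2 arrays were identical. The fit was tested on simulated data. Alternatives were other normalizations and filters, blocks for replicate, slide and session, and leaving out each replicate. Promoter motifs were not analyzed here.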

Additional observations from a re-analysis of the deposited data

Results flagged for a closer look

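The CD22 signal at day 7 was 7.94 on the log2 scale in replicate 2, below the other 6 arrays, of which the nearest stood at 8.98. The gap was 0.579 of the group's range, above the value of 0.568 that Dixon's test sets for 7 arrays. Of 36 groups of 4 to 7 arrays tested this was the 1 that stood out, and chance gives about 1 in 20. That array had the lowest median processed signal of the 24, 16.75, and the largest shift, 2.03. Without replicate 2 the day 7 change of CD22 was −2.62, called as with it.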

How the results depend on the processing

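Over 567 values of the 9 genes against pre-irradiation under the alternatives, all were below 0, from −6.39 to −0.61, and none changed sign. Of these, 524 were counted as keeping their side of the threshold, 42 no longer passed it and 1 came to pass it, BTK at day 3 at an adjusted p under 0.05. The 524 include the day 7 changes of the 9 genes within session 2. Those could not be tested and were counted because they moved by less than an SD. The number of the 9 genes called at day 3 was 0 with a slide block and 3 with a session block (8 of 9 with an unadjusted p under 0.05 in each), and at day 5 it was 5 with a session block. Within session 2 limma called 0 at day 3 and 2 at day 5, against a lone pre-irradiation array that is taken to vary like the others, on which the session block rests too. With normexp background correction 6 of 9 were called on each day, without CD72 and VPREB3 and, at day 5, CR2. A filter of at least 12 arrays left CD72 and VPREB3 untested. Between day 7 and day 3 the count was 1 (CR2) with all groups in 1 fit and 1 at an adjusted p under 0.05, and 0 otherwise. With the replicate block 8, 9 and 8 were called at days 3, 5 and 7, the same genes as without it. Leaving out any replicate gave 8 at day 3, 9 at day 5 and 8 at day 7.

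Over all probes, 3652, 4543 and 2951 were called at days 3, 5 and 7, and 139, 239 and 315 with normexp. At day 3 the count was 751 with the replicate block, 37 with the session block, 0 with the slide block and 864 to 3492 without 1 replicate, and at day 5 it was 442 with the slide block, 383 with the session block and 2714 to 4296 without 1 replicate. At day 7 it was 1654 to 2576 without 1 replicate. The normexp setting put the median log2 change of all probes at 0.163 at day 5, against 0.023. For day 7 the 1 array of each group in session 2 could not be tested. For CD72 and VPREB3 the signal over background, not the number of arrays, limits the size of the fall.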
